A study of Homo sapiens with 12 samples.

Results

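The comparison set 3 arrays of shCXCR4 clone II against 3 arrays of Parental cells, 6 of the 12 arrays in the series, over every gene with a probe set annotated to a single gene symbol. The arrays were chosen by their titles alone. IGROV-1 is an established human ovarian cancer cell line. The whole series comprises 4 groups of 3 arrays (Affymetrix Human Genome U133 Plus 2.0), namely Parental cells, a scrambled-RNA Mock pool and 2 clones with shRNA against CXCR4, called I and II. Clone II cells were transfected with a plasmid for a short hairpin RNA (shRNA) against CXCR4, kept in 4 µg/ml puromycin for 30 days and grown from an individual clone. Clone I differs from it in the shRNA sequence, and Mock cells, selected in the same way, were a pool of clones. Parental cells were neither transfected nor selected nor cloned, so knockdown, transfection, selection and clonal origin cannot be told apart in the difference between clone II and Parental. Values of Mock and clone I are given beside some of the leading genes, and every comparison with Parental uses the same 3 Parental arrays.

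CXCR4 is the G protein-coupled receptor for the chemokine CXCL12. Binding of CXCL12 activates inhibitory G proteins, which pass the signal to the ERK and AKT kinases, and arrestins then take the receptor into the cell. In ovarian cancer the pair is known for its part in cell migration and peritoneal spread.

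The deposited values are log2 intensities after robust multi-array averaging (RMA), so a difference of 1 is a 2-fold change. Array medians lay between 4.25 and 4.39. Correlations between arrays across probe sets were 0.997 to 0.998 within Parental, 0.996 to 0.997 within clone II and 0.991 to 0.994 between both groups. With 3 arrays a group precision is limited. Nothing in the labels says that replicates came from separate cultures, so a p-value here covers array-to-array spread that may be technical alone. Of 18 ovarian carcinoma markers, EPCAM stood at 11.6 in Parental and 11.8 in clone II, PAX8 at 10.2 and 10.1, KRT8 at 8.44 and 8.40, and 14 did not pass the test. In clone II CDH1, MSLN and FOLR1 were lower and CLDN3 was higher. Of 14 leukocyte markers 0 passed, and PTPRC stood at 3.01 and 3.07. Of 12 endothelial markers CDH5 alone passed, at 3.23 and 2.75, and of 12 fibroblast markers ACTA2 alone, at 5.93 and 5.53.

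CXCR4 was measured lower in clone II. On probe set 217028_at the log2 values were 8.42, 8.28 and 8.30 in Parental and 6.39, 6.73 and 6.75 in clone II. The groups did not overlap, and clone II replicate 1 was the lowest. The mean fell from 8.33 ± 0.08 (SD, n = 3) to 6.62 ± 0.20, a log2 change of -1.71 ± 0.09 (limma's standard error, adjusted p = 2.3e-08), or 3.27-fold. The other CXCR4 probe sets gave -1.08 on 209201_x_at and -0.88 on 211919_s_at, with adjusted p of 2.0e-05 and 9.0e-05 by limma. On 217028_at the Mock mean was 8.58 and the clone I mean 7.09, and clone II lay below clone I by 0.47 (adjusted p = 0.0090).

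Other parts of the receptor's pathway moved less. Of 24 measured genes of CXCR4 signalling other than CXCR4 itself, 4 fell and 1 rose, with a median log2 change of 0.00, while over all 19775 genes 14.4% passed the test, 6.11% upward and 8.33% downward, with a median of 0.02. ARRB1, an arrestin that takes activated receptors into the cell, fell by 0.61 on the log2 scale. DPP4, the surface peptidase that cleaves CXCL12, fell by 0.54, and GNAI1, an inhibitory G protein subunit, fell by 0.33, although its other probe set gave -0.18 and did not pass. CXCL12 itself changed by 0.08 (adjusted p = 0.66) and ACKR3, its other receptor, by 0.07 (adjusted p = 0.64), neither past limma's test. MIF, another ligand of CXCR4, rose by 0.20.

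Secreted factors often studied with CXCR4 in tumour cells changed in both directions. IL6, an inflammatory cytokine, stood at 4.84, 4.73 and 4.86 in Parental and at 3.95, 4.27 and 3.91 in clone II. Those values, near the array medians, did not overlap, and the change was -0.77 (adjusted p = 7.9e-05 by limma). CXCL8, the neutrophil chemokine, fell by 0.62 to a clone II mean of 4.41, also near those medians. VEGFA, the vascular growth factor, fell by 0.59, but 3 further VEGFA probe sets gave between -0.15 and 0.02 and did not pass. CXCL1, a related chemokine, was higher by 0.43 (adjusted p = 0.041 by limma), with overlapping arrays. In clone I both CXCL8 and CXCL1 stood above Parental, by 1.01 and 2.01. TNF (0.03), CCL2 (-0.07) and NOTCH3 (0.03) were not past the test. JAG1, a Notch ligand, was lower by 0.27 (adjusted p = 0.019), and HES1, a Notch target, was higher by 0.67. The calls of CXCL1 and JAG1 were each lost on leaving out any of 4 of the 6 arrays.

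Falls outnumbered rises, above all among large changes. At an adjusted p under 0.05, 1209 genes rose and 1647 fell. At 2-fold or more, 23 genes rose (0.116% of all) and 122 fell (0.617%). At 4-fold or more, 1 rose and 24 fell. All 145 genes of 2-fold or more had arrays without overlap between the groups, as did 16.9% (upward) and 15.9% (downward) of all genes. In 37 of the 122 falling genes and 3 of the 23 rising genes the mean of the higher group was below 6. Another probe set exists for 91 of the 145, and it passed the same way in 67 and the opposite way in 1. Rises made up 42.3% of all calls. Quantile normalization of the deposited values raised this to 52.4%, and subtracting each array's median lowered it to 29.5%, so a majority of falls over all calls depended on the scaling. Among the 145 genes of 2-fold or more (0.733% of all) the share of rises was 15.9%, against 19.0% and 13.2% under those scalings. The number of calls was 1792 without Parental replicate 2 and 1857 without Parental replicate 3, and rises numbered 741 without clone II replicate 2.

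The largest fall was that of GJA1. GJA1, the gap junction protein connexin 43, had log2 values of 8.10, 8.14 and 8.09 in Parental and 3.09, 3.30 and 3.37 in clone II. That is a change of -4.86 ± 0.09 (adjusted p = 5.4e-13 by limma), a 29.0-fold lower mean. The Mock mean was 7.21 and the clone I mean 2.94. PDGFC, a platelet-derived growth factor, had 8.58, 8.60 and 8.74 in Parental and 4.81, 4.86 and 4.80 in clone II, 14.1-fold lower. Here Mock, at 6.33, and clone I, at 5.76, lay between both groups. KCTD12, an auxiliary subunit of GABA-B receptors, read 6.89, 7.06 and 6.91 in Parental against 2.69, 2.97 and 2.74 in clone II. Its mean was 17.8-fold lower. The 15 largest falls were chosen among genes whose arrays did not overlap, so their lack of overlap follows from the choice.

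DPYSL2, a regulator of microtubules in growing axons, read 7.38, 7.39 and 7.50 in Parental and 4.30, 4.36 and 4.24 in clone II, 8.70-fold lower. THSD7A, a membrane protein with thrombospondin domains, read 6.52, 6.94 and 6.90 against 3.90, 3.42 and 3.70, 8.67-fold lower. DACH1, a transcriptional repressor of the retinal determination network, read 5.50, 5.53 and 5.48 against 2.78, 2.68 and 2.63. All 3 genes lacked overlap between groups, as the choice of the largest falls required. For THSD7A and DACH1 the Mock mean lay above Parental, at 7.4 and 7.01. DOCK8, an activator of the GTPase CDC42, fell by 2.89, BASP1, a membrane-bound growth cone protein, by 2.49, and SCEL, a precursor of the cornified envelope, by 2.59. CRISPLD1 (-3.39), MGAT4C, a glycosyltransferase (-3.36), and PNMA2 (-2.34) complete this group, and the clone II means of CRISPLD1 and MGAT4C, at 2.06 and 2.18, lay far below the array medians.

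The array carries other probe sets for 11 of the 15 largest falls. All of them passed the same way in 4 genes, and at least 1 did not pass in 7. In ADGRL2, NCALD, BASP1 and PNMA2 no other probe set passed. LRATD1 fell by 3.92 on 225667_s_at and by 3.05 on 234331_s_at, while 228319_at gave 0.14 and did not pass. ADGRL2, an adhesion G protein-coupled receptor, fell by 2.97 on 206953_s_at, and its other probe set gave 0.085. NCALD, a neuronal calcium sensor, fell by 2.81 on 211685_s_at, and its other probe set gave 0.046. The other probe sets of ADGRL2 and NCALD were dim, at means of 2.00 and 2.38 in Parental. Those of BASP1 and PNMA2 gave 0.02 and 0.13, at Parental means of 4.43 and 4.02. For DOCK8, 1 of 3 others fell, and for SCEL 2 of 3.

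The comparisons of clone II with Mock and with clone I use the same 3 clone II arrays as the comparison with Parental, so their counts among genes chosen by that comparison are not independent of it. Against Mock, where 13.4% of all genes were lower in clone II and 9.08% higher (22.5% in all), 91 of the 122 genes that fell at least 2-fold were lower, 5 were higher and 26 did not pass. Against clone I, where 3.56% of all genes were lower in clone II and 1.65% higher (5.21% in all), 54 of the 122 were lower, 2 were higher and 66 did not pass. KIT, a receptor tyrosine kinase, shows the case of a higher value than Mock. It read 6.68, 6.31 and 6.63 in Parental and 4.30, 4.41 and 4.45 in clone II, a change of -2.15, but the Mock mean was 3.57, below clone II by 0.81 (adjusted p = 0.00023 by limma). ITGB8, an integrin that activates latent TGF-beta, also fell by 1.14 against Parental and was higher by 1.04 against Mock.

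**Figure D1:**
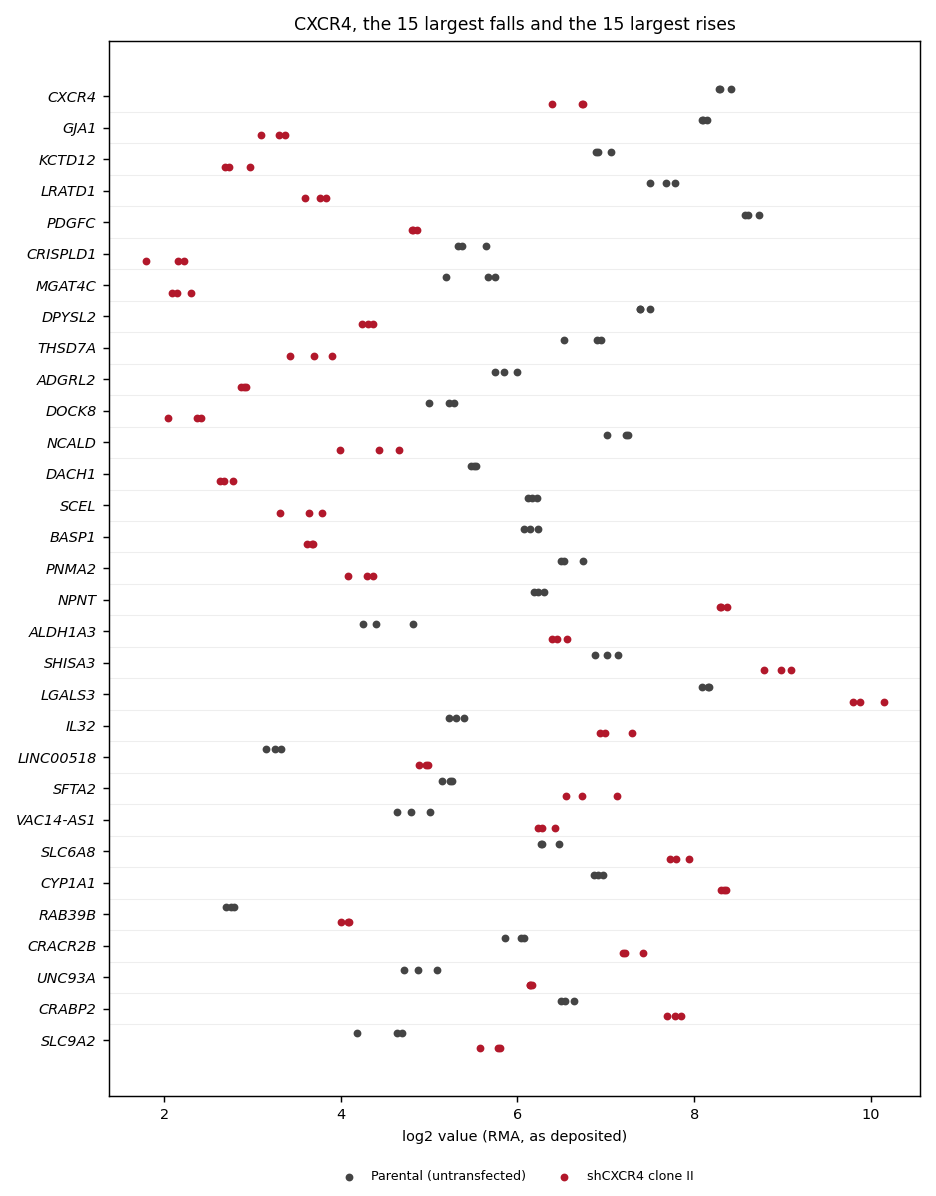
Log2 values (RMA, horizontal axis) of CXCR4, the 15 genes with the largest falls and the 15 with the largest rises; each point is 1 array, grey for Parental and red for clone II. The rises and falls were chosen among genes whose arrays do not overlap, so the gap between red and grey follows from the choice. CXCR4 was not chosen so, and its points do not overlap either. GJA1 spans from 8.14 down to 3.09.

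The largest rises were smaller than the largest falls. NPNT, the matrix protein nephronectin that binds integrin alpha8 beta1, read 6.23, 6.30 and 6.18 in Parental and 8.30, 8.31 and 8.37 in clone II. Its change of 2.09 ± 0.07 (adjusted p = 3.3e-10 by limma), 4.25-fold, was the single rise above 4-fold. LGALS3, the galactoside-binding lectin galectin-3, read 8.09, 8.16 and 8.16 against 9.80, 9.87 and 10.14, 3.49-fold higher, on probe set 208949_s_at. Its other probe set, at 2.08 in both groups, gave 0.01. IL32, a cytokine, read 5.22, 5.40 and 5.30 against 6.94, 6.99 and 7.29, 3.41-fold higher. None of these genes overlapped between the groups, as the choice of the largest rises required.

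SHISA3, an inhibitor of Wnt and FGF receptor maturation, read 7.14, 7.02 and 6.88 in Parental and 8.79, 9.09 and 8.98 in clone II. Its change was 1.94, yet Mock stood at 10.9, above clone II. CYP1A1, a target of the aryl hydrocarbon receptor, read 6.97, 6.87 and 6.91 against 8.36, 8.31 and 8.33, with Mock at 7.97 and clone I at 7.94. SLC6A8, the creatine transporter, rose by 1.48, and its Mock mean of 7.64 did not differ from the clone II mean of 7.82 past the test. UNC93A (1.26), CRACR2B (1.29), SFTA2 (1.59) and the non-coding transcripts LINC00518 (1.71) and VAC14-AS1 (1.49) rose as well. VAC14-AS1 differed from Mock by 0.01. It is annotated as antisense to VAC14, and the strand its probes match was not tested. Of the 23 genes that rose at least 2-fold, 17 were higher than Mock, 3 were lower and 3 did not pass, with the clone II arrays shared as before. Against clone I, 4 were higher, 6 lower and 13 did not pass.

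Retinoid and aldehyde metabolism held both large rises and large falls. ALDH1A3, which makes retinoic acid from retinal, read 4.82, 4.25 and 4.40 in Parental and 6.45, 6.56 and 6.40 in clone II. That is a rise of 1.98. ALDH1A1, which catalyses the same step, read 10.91, 10.88 and 10.92 in Parental and 8.73, 8.68 and 8.84 in clone II. It fell by 2.15, 4.44-fold, with Mock at 9.60 and clone I at 8.99. CRABP2, which carries retinoic acid to its nuclear receptor, rose by 1.22. DHRS3, which returns retinal to retinol, fell by 1.22, with Parental at 6.90 and clone I at 6.82. In the list of drug efflux, retinoid and aldehyde genes 3 of 31 rose and 9 fell, with a median of -0.02. That is 29% down, against 8.33% of all genes and 15.3% of those with a mean log2 of at least 6. The others that fell include the lipid exporter ABCA1 (-1.09), the drug transporter ABCB1 (-0.54) and ALDH2 (-0.48), named after their values were seen.

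Genes of cholesterol synthesis were lower over much of the pathway. Of 24 genes of cholesterol and fatty acid synthesis measured, 13 fell and 1 rose, 58.3% past the test against 14.4% of all genes. The list median was -0.37 against 0.02. Among the 8338 genes with a mean log2 of at least 6, 15.3% fell and 8.88% rose, with a median of -0.02. INSIG1, which holds the regulator SCAP in the endoplasmic reticulum when sterols are plentiful, read 9.36, 9.45 and 9.39 in Parental and 7.86, 8.21 and 8.21 in clone II. It fell by 1.31 (adjusted p = 2.9e-07 by limma), without overlap. HMGCS1, the synthase ahead of HMG-CoA reductase, read 7.64, 8.04 and 8.15 against 6.99, 7.0 and 6.53, and fell by 1.10. STARD4, a cytosolic sterol carrier, fell by 0.86 and MSMO1, a sterol methyl oxidase, by 0.70.

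Further along the pathway HSD17B7 (-0.53), LSS (-0.47), DHCR7 (-0.45), SC5D (-0.40), IDI1 (-0.39), FDPS (-0.38) and SQLE (-0.35) fell. ACLY, which makes cytosolic acetyl-CoA, and the fatty acid elongase ELOVL6 fell by 0.40 and 0.38. The regulators SREBF2 (-0.23, adjusted p = 0.085) and SREBF1 (0.13, adjusted p = 0.34) did not pass limma's test, nor did FASN (0.02). NSDHL, a sterol dehydrogenase on chromosome X, rose by 0.22, and did not pass after centring of the arrays or when any of the 6 arrays was left out. The falls numbered 14 under both scaling alternatives, 8 of 16 without probe sets marked _x_at or _s_at, and 13 or 14 when any of the 6 arrays was left out. Mock cells also stood below Parental in the leading genes, with INSIG1 at 8.34, HMGCS1 at 6.95, STARD4 at 6.95 and MSMO1 at 9.85. Clone II was past the test against Mock in STARD4 (-0.34, adjusted p = 0.019) but not in INSIG1 (-0.25, adjusted p = 0.060), HMGCS1 (-0.11) or MSMO1 (-0.21).

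**Figure D2:**
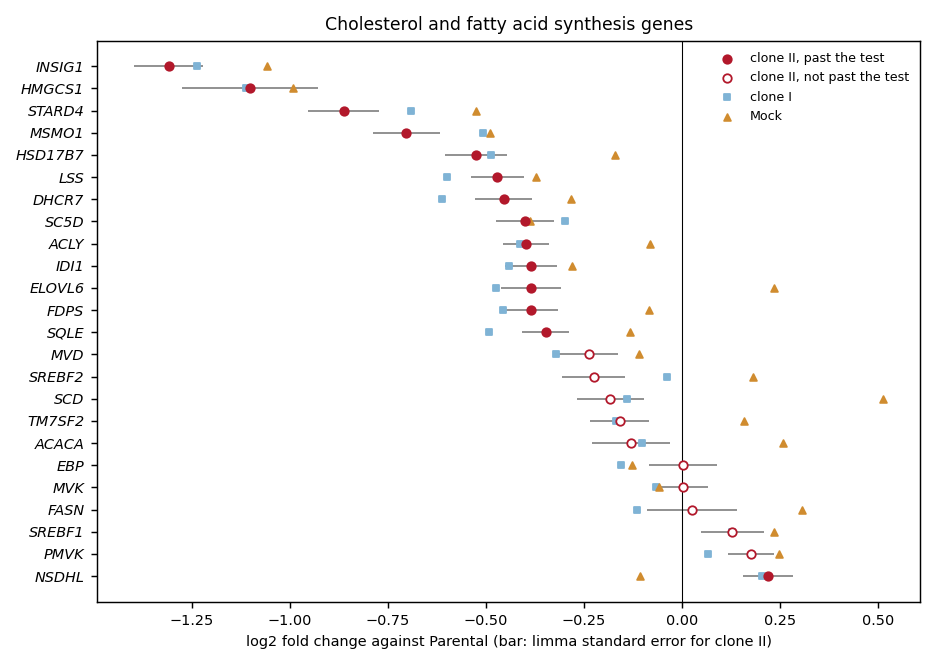
Log2 change against Parental (horizontal axis) of the 24 cholesterol and fatty acid synthesis genes; red circles are clone II with limma's standard error (filled where past the test), blue squares clone I and orange triangles the Mock pool. Of the filled circles 13 lie left of 0, INSIG1 lowest at -1.31, and the Mock triangles of INSIG1 and HMGCS1 lie near them.

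Promoter sequence was examined because these genes fell together. RefSeq promoters (GRCh38.p14) were matched for 12 of the 13 falling genes, 10 of the 11 others in the list and 15384 of all 19775 genes, and 3 motifs were searched in the 250 bases before the start on both strands. TCACNCCAC, the core of the sterol response element, was found in 0 of the 12 falling genes, 1 of the 10 others and 0.832% of all promoters. CCAAT, the NF-Y box, was found in 10 of 12 (83.3%), in 7 of 10 others (70.0%) and in 34.1% of all. GGGCGG, the GC box, was found in all 12, in 9 of 10 others (90.0%) and in 56.3% of all. The CCAAT box was chosen for display after these counts were seen, and a match is a description of letters, not of a bound site. The 200 bases before the start are shown for the 4 genes with the largest falls, in capitals where CCAAT or its reverse complement ATTGG stands.
INSIG1: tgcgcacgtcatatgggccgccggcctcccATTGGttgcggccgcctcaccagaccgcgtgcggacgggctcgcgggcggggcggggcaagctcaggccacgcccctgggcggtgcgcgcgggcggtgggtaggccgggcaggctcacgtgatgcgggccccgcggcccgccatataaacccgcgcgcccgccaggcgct
HMGCS1: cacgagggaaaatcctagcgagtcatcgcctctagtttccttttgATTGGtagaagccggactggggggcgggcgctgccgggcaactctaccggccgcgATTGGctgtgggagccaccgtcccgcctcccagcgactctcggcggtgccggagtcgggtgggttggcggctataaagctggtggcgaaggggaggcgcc
STARD4: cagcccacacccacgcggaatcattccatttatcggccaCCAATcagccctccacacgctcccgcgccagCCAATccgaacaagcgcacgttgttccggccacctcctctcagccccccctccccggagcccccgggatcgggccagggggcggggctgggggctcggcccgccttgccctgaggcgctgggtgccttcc
MSMO1: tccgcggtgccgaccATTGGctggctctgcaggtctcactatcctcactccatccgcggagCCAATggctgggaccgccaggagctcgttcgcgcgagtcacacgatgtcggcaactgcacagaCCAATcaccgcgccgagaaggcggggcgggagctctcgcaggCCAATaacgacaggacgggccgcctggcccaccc
INSIG1 (chr7:155297678-155297877, plus strand) held 1 such box and 4 GC boxes, HMGCS1 (chr5:43313413-43313612, minus strand) 2 and 1, STARD4 (chr5:111512536-111512735, minus strand) 2 and 1, and MSMO1 (chr4:165327469-165327668, plus strand) 4 and 1.

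Rises were unevenly placed along the genome. The shares below cover 8338 genes with a mean log2 of at least 6 and a chromosome in the RefSeq gene table, of which 8.88% rose and 15.3% fell. All 23 chromosomes from 1 to X were compared, a choice made after the data were seen. On chromosome X 37.4% of 262 genes rose, and on chromosome 14 25.3% of 273 rose and 4.40% fell. Outside these 7.34% rose and 15.7% fell. Falls were most frequent on chromosomes 13 (29.9% of 154 genes), 18 (24% of 121) and 4 (22.5% of 306).

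On chromosome X the rises lay mostly beyond the middle of the gene order. In order along the chromosome, cut in 6 pieces of nearly equal gene number, 3, 1 and 2 genes rose in the first pieces and 24, 33 and 35 in the last, out of 43 or 44 each. The change came at HDAC8, a boundary also chosen after the values were seen. From HDAC8 to VAMP7, 92 of 131 genes rose (70.2%) and 4 fell, 117 had positive values, and the median was 0.35, or 1.28-fold. Before HDAC8, 6 of 131 rose and 35 fell, with a median of -0.08. The segment's median against the Parental mean was 0.29, 0.35 and 0.41 on the 3 clone II arrays, 0.43, 0.45 and 0.43 on the clone I arrays and 0.01, 0.07 and 0.01 on the Mock arrays. The clone arrays did not overlap with the Mock arrays. Against Mock 91 of the 131 genes rose in clone II (69.5%), where 6.99% rose over all chromosomes. Against clone I 2 were higher and 15 lower, where over all genes 1.65% were higher and 3.56% lower. These comparisons use the same clone II arrays whose values set the boundary, so the counts are not independent of it.

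The segment holds genes of several functions. HPRT1, the purine salvage enzyme, rose by 0.75, SOX3, a developmental transcription factor, by 0.78 and F8, coagulation factor VIII, by 0.88. NDUFA1 (0.59) and COX7B (0.39) encode respiratory chain subunits. They make up 2 of the 4 rises among 27 such genes measured, where 1 gene fell. Of those 27, 18.5% passed the test, against 14.4% of all genes. Near the other end of the chromosome the sulfatase genes ARSD and ARSL fell by 1.09 and 1.05. Except for the respiratory subunits, the genes of this paragraph were named after their values were seen.

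On chromosome 14 the shift was smaller and present in Mock. The median was 0.11 in clone II, 0.15 in clone I and 0.20 in Mock, and 39.6% of the chromosome's genes rose in Mock against Parental, where 14.8% rose over all chromosomes. Against Mock 4.76% rose in clone II, below the 6.99% over all chromosomes. A running median over 25 genes reached 0.49 on X and 0.26 on chromosome 14, and stayed between -0.35 and 0.14 on the other chromosomes. Over the 20 alternative settings the share of rises on X lay between 10.3% (minimum fold of 1.2) and 42.4% (mean log2 of at least 6). On chromosome 14 it lay between 2.20% (minimum fold of 1.2) and 35.7% (quantile normalization). The number of rises over all genes moved with the setting too. Of 19775 genes 1209 rose as reported, 125 with a minimum fold of 1.2 and 1594 after quantile normalization. With genes of a mean log2 of at least 6 alone, 1235 of 8348 rose.

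**Figure D3:**
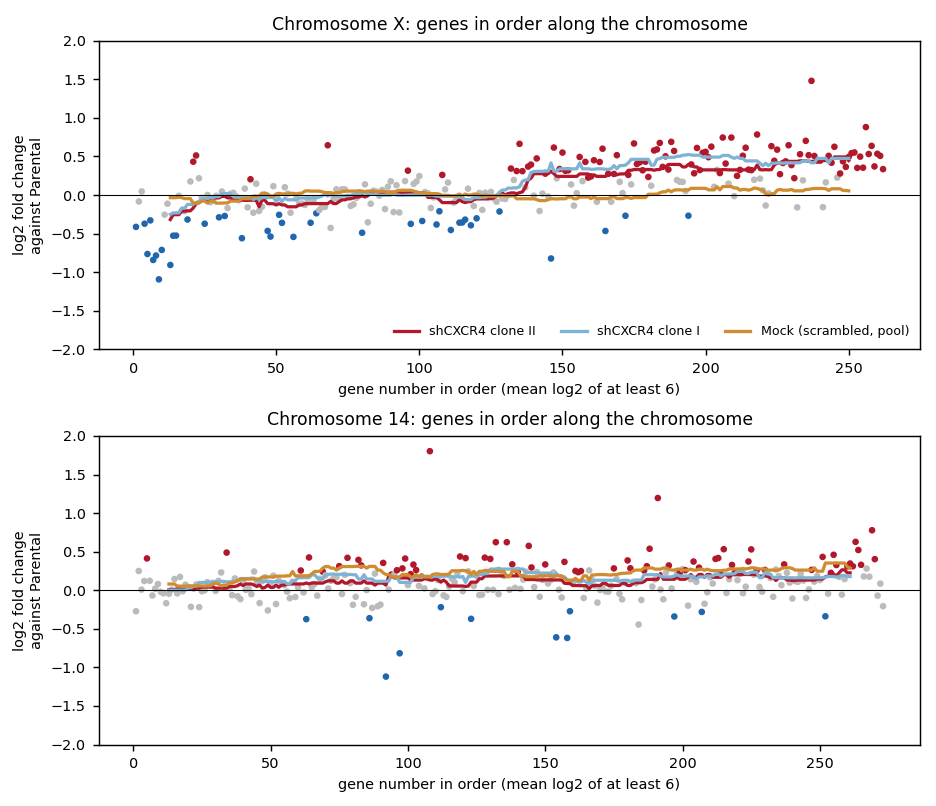
Log2 change against Parental (vertical axis) of genes in their order along chromosomes X and 14; points are clone II values (red past the test upward, blue downward, grey not past) and lines are running medians over 25 genes for clone II (red), clone I (blue) and Mock (orange). On X the lines of both clones step up near the middle and reach 0.49 in clone II while Mock stays near 0, and on 14 all 3 lines lie above 0.

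Beyond these groups, most gene lists held more falls than rises, as did all genes together except after quantile normalization. Among genes with a mean log2 of at least 6, 15.3% fell and 8.88% rose. The lists of p53 targets and of mitosis genes held falls and no rises. Of 21 p53 targets measured 8 fell and 0 rose, with a median of -0.16, or -0.08 after quantile normalization. TP53INP1, a p53-induced nuclear protein, fell by 0.92, RRM2B, a ribonucleotide reductase subunit, by 0.92, PLK2 by 0.71 and MDM2, the ubiquitin ligase of p53, by 0.51. Of 32 mitosis genes 9 fell and 0 rose, among them the spindle motor KIF11 (-0.50) and the topoisomerase TOP2A (-0.31). That count was 5 after quantile normalization, 5 without clone II replicate 1, 5 without clone II replicate 2, 3 without Parental replicate 2 and 4 without Parental replicate 3. Of 32 DNA replication genes 2 rose and 1 fell, and of 18 ribosomal protein genes 0 passed.

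The interferon, NF-kappaB and antigen processing lists held falls and no rises, while cytokines and chemokines changed in both directions. Of 33 interferon-stimulated genes 9 fell (27.3%) and 0 rose, with a median of -0.11. Over all genes 8.33% fell, and 15.3% of those with a mean log2 of at least 6. IFIT2, an RNA-binding antiviral protein, read 6.19, 6.15 and 5.69 in Parental and 5.0, 5.03 and 5.13 in clone II, a fall of 0.96 without overlap. IFIT3 fell by 0.67 and GBP1, an interferon-induced GTPase, by 0.63. Of 18 NF-kappaB regulators and targets 6 fell (33.3%) and 0 rose, led by TNFAIP3, the deubiquitinase that limits the pathway (-0.71). The falls were 3 without Parental replicate 3 and 1 of 12 without probe sets marked _x_at or _s_at. In class I antigen processing 3 of 17 fell, ERAP2 by 0.52, PSMB9 by 0.34 and ERAP1 by 0.33. That is 17.6% past the test, against 14.4% of all genes. Of the 17, 1 passed without clone II replicate 2 or without Parental replicate 2. Of 28 cytokines and chemokines 5 fell and 2 rose, with IL6 (-0.77) and IL32 (1.77) at the ends.

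**Figure D4:**
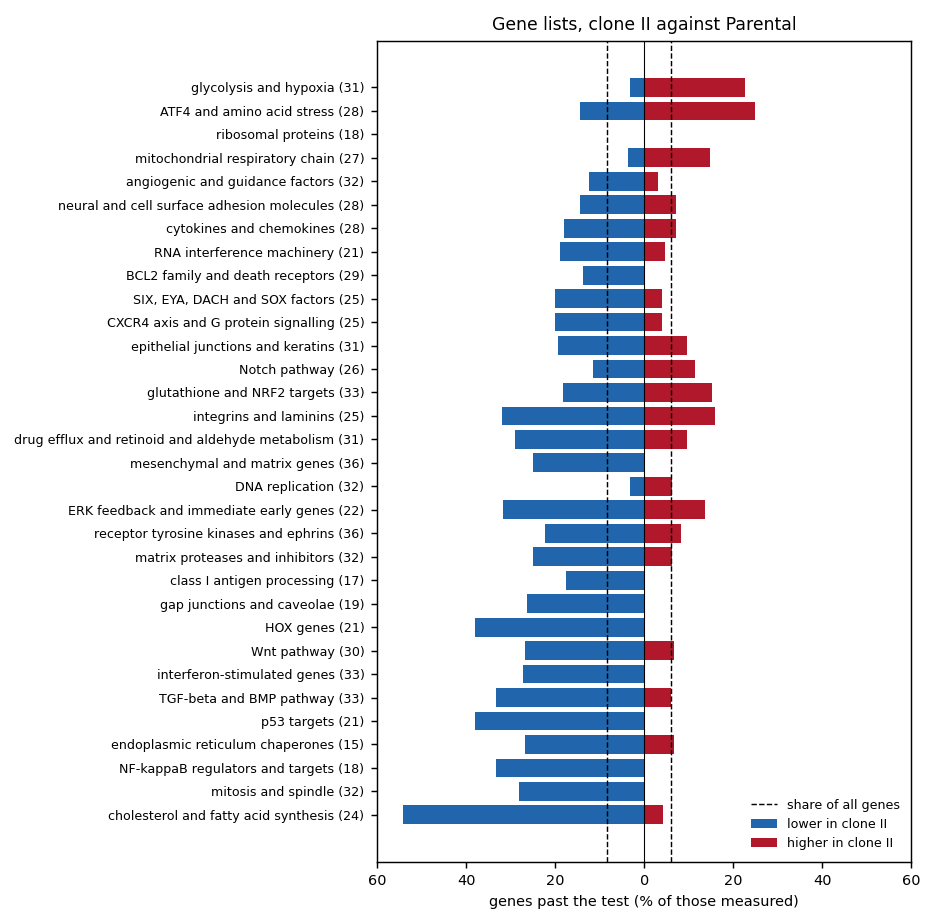
Share of measured genes past the test in each gene list (horizontal axis, % of the list; number measured in brackets), lower in clone II to the left in blue and higher to the right in red; dashed lines mark 8.33% and 6.11% of all genes. The cholesterol list reaches farthest to the left, and 0 ribosomal protein genes passed. Among genes with a mean log2 of at least 6, 15.3% fell and 8.88% rose, shares that are not drawn.

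Signalling lists held changes in both directions. Over all genes 8.33% fell and 6.11% rose, and 15.3% and 8.88% of those with a mean log2 of at least 6. In the TGF-beta list 33.3% fell and 6.06% rose, and in the Wnt list 26.7% and 6.67%. Of 33 TGF-beta and BMP genes 11 fell and 2 rose, with a median of -0.15. FSTL1, a secreted follistatin-like protein, read 8.41, 8.41 and 8.43 in Parental and 6.74, 6.47 and 6.56 in clone II, 3.55-fold lower. SKIL, a corepressor of SMAD proteins, fell by 1.17 and the receptor TGFBR2 by 0.94, while ID3, a BMP target, rose by 0.52. Of 30 Wnt pathway genes 8 fell and 2 rose. The receptor FZD1 fell by 1.74 on 204451_at, while its other probe sets gave -0.35 and 0.18 and did not pass. The ligand WNT5A fell by 0.82 and the R-spondin receptor LGR4 by 0.64, whose probe sets not marked _s_at gave -0.01.

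Among 36 receptor tyrosine kinase and ephrin genes 8 fell (22.2%) and 3 rose (8.33%). The shares of all genes were 8.33% and 6.11%, or 15.3% and 8.88% where the mean log2 reached 6. Besides PDGFC and KIT, EPHA4, an ephrin receptor, read 7.98, 7.91 and 7.95 in Parental and 6.52, 6.34 and 6.31 in clone II. It fell by 1.56, with Mock at 6.24. ERBB4, a neuregulin receptor, fell by 1.53 with Mock at 7.05. The 3 rises were EPHA2, ROR2 and ERBB3, between 0.21 and 0.44, and none of them passed without clone II replicate 2, while 1 passed without clone II replicate 1 or any 1 of the Parental arrays. In the ERK list 7 of 22 fell (31.8%) and 3 rose (13.6%). The phosphatase DUSP4, a feedback inhibitor of ERK, fell by 0.83 and the ligand TGFA by 0.64, while the immediate early genes FOS and EGR1 rose by 1.195 and 0.78. The falls numbered 4 without clone II replicate 2 or without Parental replicate 3.

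Adhesion genes fell from both the epithelial and the mesenchymal list. In these lists 19.4% and 25% fell, against 8.33% of all genes and 15.3% of those with a mean log2 of at least 6. CDH1, the epithelial cadherin, read 8.70, 8.75 and 8.84 in Parental and 7.14, 7.25 and 7.23 in clone II. It fell by 1.56, with Mock at 7.90 and clone I at 8.18. CDH2, the neural cadherin, read 6.73, 6.42 and 6.30 against 5.34, 5.22 and 5.26, and fell by 1.21. Neither overlapped. Of 31 epithelial junction and keratin genes 6 fell and 3 rose, with the tight junction protein CLDN1 up by 0.49. Of 36 mesenchymal and matrix genes 9 fell and 0 rose, but 3 fell when the probe sets of each gene were averaged, and 5 without clone II replicate 1, clone II replicate 2, Parental replicate 1 or Parental replicate 2.

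COL6A1, a collagen VI chain in that list, fell by 0.67 on 213428_s_at while 212937_s_at rose by 0.29. Of 19 gap junction and caveola genes 5 fell and 0 rose, GJA1 first. In that list 26.3% fell and in the integrin and laminin list 32%, against 8.33% of all genes. CAV1, which shapes caveolae, read 7.25, 7.42 and 7.41 against 5.73, 5.65 and 5.62, 3.22-fold lower, and CAV2 and CAVIN1 fell by 0.56 and 0.48. Of 25 integrin and laminin genes 8 fell and 4 rose, where ITGA5, the fibronectin receptor's alpha chain, rose by 0.86 and LAMB3, a laminin-332 chain, fell by 0.62.

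Matrix proteases and guidance factors held several large falls. Of 32 protease and inhibitor genes 8 fell and 2 rose. That is 25% down, against 8.33% of all genes and 15.3% of those with a mean log2 of at least 6. MMP1, interstitial collagenase, read 4.95, 5.02 and 4.88 in Parental and 3.00, 3.25 and 3.39 in clone II, 3.32-fold lower, with Mock at 3.17 and clone I at 4.52. SERPINE2, a serine protease inhibitor, fell by 1.57 and ADAMTS1, a proteoglycan-cleaving protease, by 1.28, and they differed from Mock by -0.05 and -0.09. Of 32 angiogenic and guidance genes 4 fell and 1 rose, 15.6% past the test, near the 14.4% of all genes. SEMA3C, a secreted semaphorin, read 9.51, 9.52 and 9.57 against 7.16, 7.40 and 7.64, 4.38-fold lower, and NTN4, a netrin, fell by 2.01.

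Among transcription factors, neighbouring HOXB genes fell together. In the HOX list 38.1% fell and in the DACH, EYA and SOX list 20%. The shares of all genes were 8.33%, or 15.3% where the mean log2 reached 6. Of 21 HOX genes measured 8 fell and 0 rose, and 6 of the 8 were HOXB2 (-0.77), HOXB3 (-0.81), HOXB4 (-0.44), HOXB5 (-0.46), HOXB6 (-0.69) and HOXB7 (-0.54). These genes set positional identity along the body axis and lie side by side on chromosome 17. HOXB1, HOXB8, HOXB9 and HOXB13, the other members measured there, did not pass, with values of 0.33, -0.11, -0.03 and 0.24. HOXB4, HOXB5 and HOXB7 were named after their values were seen. HOXB6 on probe sets not marked _s_at gave -0.28 and did not pass. Of 25 genes of the DACH, EYA, SOX and related developmental families 5 fell and 1 rose, among them EYA4 (-1.34), TOX3 (-1.32) and SOX9 (-1.10).

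By number of rises the ATF4 (25% of its genes), the glycolysis (22.6%) and the glutathione list (15.2%) came first. By share the integrin and laminin list, at 16%, stood above the glutathione list. The shares of all genes were 6.11% up and 8.33% down, or 8.88% and 15.3% where the mean log2 reached 6. In the ATF4 and amino acid list 7 of 28 rose and 4 fell. PHGDH, the first enzyme of serine synthesis, read 7.53, 7.36 and 7.45 in Parental and 8.37, 8.33 and 8.30 in clone II and rose by 0.88. ASNS, asparagine synthetase, rose by 0.65 on 205047_s_at, and its other probe set gave 0.04. CTH, which makes cysteine from cystathionine, read 8.54, 8.56 and 8.57 against 6.58, 6.72 and 6.89, 3.55-fold lower. Of 31 glycolysis and hypoxia genes 7 rose and 1 fell, led by ENO2 (0.65), a neuronal enolase, and ANKRD37 (0.56), and 4 rose without Parental replicate 3. In the glutathione and NRF2 list 5 of 33 rose and 6 fell. GSTM4 (1.03), GSTM3 (0.90) and GSTM1 (0.70) are glutathione transferase paralogs whose probes may share signal, and AKR1C3, an aldo-keto reductase, fell by 1.13. The rises there numbered 3 without Parental replicate 2 or without Parental replicate 3.

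The remaining lists held smaller changes. Over all genes 8.33% fell and 6.11% rose, and 15.3% and 8.88% of those with a mean log2 of at least 6. The shares that fell were 11.5% for Notch, 26.7% for chaperones and 19% for RNA interference genes. Among 26 Notch genes 3 rose and 3 fell, with the ligand JAG2 up by 0.78 and the ubiquitin ligase DTX4 down by 0.65, and 5 rose without clone II replicate 3. In 15 chaperone genes 4 fell and 1 rose, PDIA4 by -0.42 and SDF2L1 by 0.34 at the ends, and 2 fell without Parental replicate 1. Of 29 BCL2 family and death receptor genes 4 fell and 0 rose, CASP8 by 0.40. That is 13.8% past the test, near the 14.4% of all genes. Of 28 neural and cell surface adhesion genes 4 fell and 2 rose, with NECTIN3 at -0.85 and NRCAM at 0.45. Of 21 RNA interference genes 4 fell and 1 rose, TNRC6A most at -0.37, and 2 fell without Parental replicate 3.

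Several calls rested on a single probe set. Of the 160 named genes past the test, 108 have another probe set, always the dimmer by the choice of the brightest, and in 44 of these no other passed the same way. ALDH1A3 gave 0.24 on its other probe set, SERPINE2 0.05, SLC9A2 0.00, LINC00518 0.18, ANKRD37 0.02 and HOXB3 0.22. EYA4 gave -0.13 and -0.21 on its other probe sets and TP53INP1 0.15 and 0.16. The 5 others of JAG1 lay between -0.25 and 0.06, and the 5 others of TNRC6A between -0.20 and 0.19. IFIT2 gave -0.23, IFIT3 -0.18, PDIA4 -0.15 and CLDN1 0.40, and TOP2A and CASP8 gave -0.28 and -0.17 at most. None of these values passed limma's test.

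A smaller group of genes set clone II apart from the 3 other groups at once. For 265 genes (1.34% of all) clone II differed in the same direction from Parental, Mock and clone I, each past limma's test, with its 3 arrays beyond the 9 others. Of these 235 were lower (1.19%) and 30 higher (0.152%). The total was 163 without clone II replicate 1, 155 without replicate 2 and 447 without replicate 3, so it varied with single arrays. The root mean square difference between group means, over the 19775 genes, was 0.252 against Parental, 0.273 against Mock and 0.166 against clone I.

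KCNJ2, an inward rectifier potassium channel, read 4.93, 4.77 and 4.96 in clone II, while Parental, Mock and clone I had means of 6.12, 6.05 and 6.05. SOX9, a transcription factor of epithelial progenitors and cartilage, read 4.09, 4.05 and 4.29 in clone II against means of 5.24, 6.61 and 5.20. SGPP2, a sphingosine 1-phosphate phosphatase, read 5.96, 5.96 and 5.76 against 7.95, 7.62 and 6.93. In these 3 genes each clone II array was below all others. SCEL, FAM110C, KCTD12, LRATD1 and THSD7A were also lowest in clone II, by at least 1.16 against each group.

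The genes highest in clone II differed less. STK32B, a protein kinase, read 8.40, 8.39 and 8.47 in clone II, against means of 7.32 in Parental, 6.46 in Mock and 7.82 in clone I. RAB39B, a small GTPase of vesicle transport encoded on X, read 4.09, 4.08 and 4.00 against 2.75, 2.46 and 3.43, all dim. SLC9A2, a sodium-proton exchanger, read 5.78, 5.58 and 5.80 against 4.50, 4.09 and 4.89. DLC1, a GTPase-activating protein for RHOA, was higher by 0.47, 0.48 and 0.44 than Parental, Mock and clone I. SAMD5, METRN, FABP3 and FAM20A complete the 8, with changes of 0.97, 0.95, 0.56 and 0.42 against Parental. METRN rose on 232269_x_at and, by 0.73, on 219051_x_at, while 228419_at gave 0.15 and did not pass, and FAM20A did not pass against Parental without clone II replicate 1, Parental replicate 2 or Parental replicate 3.

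**Figure D5:**
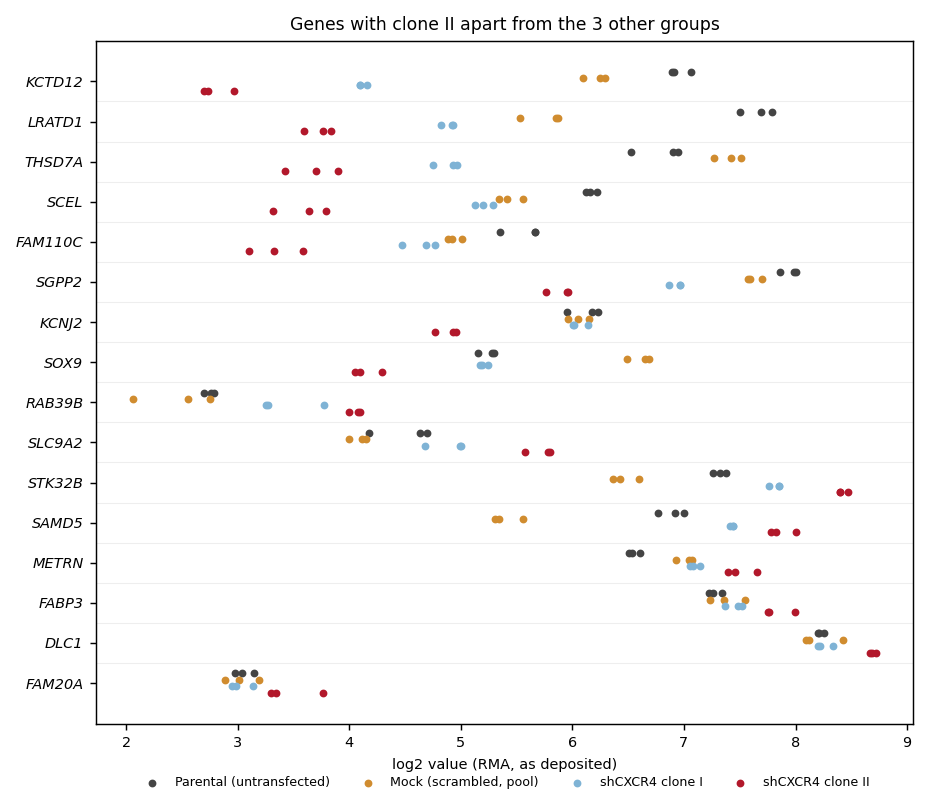
Log2 values (RMA, horizontal axis) on all 12 arrays for the 8 genes lowest and the 8 highest in clone II by their smallest difference from the other groups; grey is Parental, orange Mock, light blue clone I and red clone II. The red points lie left of all others in KCNJ2 (4.77 to 4.96) and right of all others in STK32B (8.39 to 8.47).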

How the data were processed

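Total RNA of the 12 samples, 6 µg each, was labelled and hybridised to Affymetrix arrays (Human Genome U133 Plus 2.0). The authors deposited log2 values per probe set, made with RMA in R 2.6.0 per the submitters' processing notes. Its background step, chip definition and filters were not given in the sources used here. No further normalization was applied. Of 54675 probe sets, 41091 carry a single gene symbol and were tested, 1801 carry several, 11721 none, and 62 are controls. GEO's platform annotation gave the symbols, and 41037 probe sets matched RefSeq. Each of 19775 genes is represented by the probe set of highest mean on the 12 arrays among those of its single symbol.

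The test was limma 3.58.1 under R 4.3.3, with lmFit and eBayes on a group-means model on all 12 arrays with 8 residual and 5.67 prior degrees of freedom and no covariate. P-values were Benjamini-Hochberg adjusted over all 41091 probe sets, with a threshold of 0.05. The script was tested on simulated data. Errors are limma's standard errors unless SD is stated.

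Named genes are CXCR4 and a panel of 11 others, the 15 largest rises and 15 largest falls past the test without overlap of arrays, the 8 genes highest and 8 lowest in clone II among those apart from the 3 other groups, and up to 4 members of each list with the largest change past the test. This rule gave 165 genes, and any other gene was named after its values were seen. The comparison, the 36 gene lists and the rule were chosen with earlier results of these data known. Lists are described by counts and medians and were not tested.

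Chromosome and gene order came from the RefSeq gene table, with no coordinates, since the files name no build. Alternatives covered probe set choice, filters on dim genes, normalization, variance model, array weights, thresholds, a replicate block and leaving out each array. Figures used matplotlib 3.10.9, numpy 2.4.6 and pandas 2.3.3 under Python 3.11.15.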

Additional observations from a re-analysis of the deposited data

Results flagged for a closer look

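Both clones were set against the same Parental arrays, so the difference between their effects is the difference between the clones. Of the 165 genes named, 65 passed limma's test of that difference (adjusted p under 0.05), 12 higher and 53 lower in clone II. Over all genes 5.21% passed it, 1.65% higher and 3.56% lower. The named genes include the 8 highest and 8 lowest in clone II, chosen partly by this same difference, and the 15 largest falls against Parental, so their count and its direction are in part fixed by the choice and describe the named genes alone. The 13 that also differed at least 2-fold are given here. All 13 were lower in clone II, and SCEL, KCTD12, FAM110C, THSD7A, LRATD1, SGPP2, KCNJ2 and SOX9 among them are the 8 chosen as lowest.

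CXCL8 differed most, by -1.63 on the log2 scale (adjusted p = 2.4e-08), with -0.62 against Parental in clone II and 1.01 in clone I. CXCL1 differed by -1.58, with 0.43 in clone II and 2.01 in clone I, and FOS by -1.16, with 1.195 and 2.36. SCEL differed by -1.62, KCTD12 by -1.32, MMP1 by -1.31, FAM110C by -1.31, THSD7A by -1.21, LRATD1 by -1.16 and SGPP2 by -1.04, and each was below Parental in both clones. For KCNJ2 (-1.17), DHRS3 (-1.14) and SOX9 (-1.06) the clone I change against Parental was -0.07, -0.08 and -0.04.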

How the results depend on the processing

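Of the 165 named genes 160 passed the test. The threshold of 0.01 was not applied to single genes. Under every other alternative that tested them, 89 of the 160 kept their call and direction, CXCR4 among them. The number of genes past the test was 2856 as reported, 500 (125 up, 375 down) with a minimum fold of 1.2, 1475 (518 up, 957 down) at adjusted p under 0.01, and 798 up after centring of the arrays. With the replicate number as a block it was 2640. Same-numbered deviations from the group means correlated at 0.05, -0.05 and -0.03, and differently numbered ones at -0.12 to 0.15. Each group of 3 was centred on its own mean, so these values cannot decide whether arrays were paired. Leaving out 1 array gave 1792 to 3358 genes, 675 to 1447 up and 1117 to 1911 down. Genes of 2-fold or more numbered 76 (59 down) where the mean log2 reached 6, and 15 up when probe sets were averaged by gene. Genes with clone II apart from the 3 other groups, 265 as reported, numbered 432 (68 up, 364 down) where the mean log2 reached 6, 421 (59, 362) in the upper 50% by mean, 414 (55, 359) with a trended and robust variance, 35 (0, 35) with a minimum fold of 1.2 and 116 (7, 109) at adjusted p under 0.01. The 30 highest in clone II became 51 with 1 probe set per gene tested, 51 with averaged probe sets, 51 with array weights, 65 after quantile normalization and 19 after centring. Leaving out 1 array gave 155 to 447, with 17 to 102 up and 138 to 345 down. Without probe sets marked _x_at or _s_at, LRATD1 (0.14), ADGRL2 (0.085), NCALD (0.046), COL6A1 (0.18), PCDH9 (0.054) and RRM2 (-0.17) reversed; for these genes another probe set then stands for the gene. Without those probe sets 5 of 17 HOX genes fell. RRM2 lost its call under 11 alternatives and ACTA2 and TNFRSF10A under 8 each. The low values of dim genes and 3 arrays per group limit what could be detected. Unless stated, the cause of a change was not tested.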
